A study of Mus musculus with 22 samples.

Results

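Homeostatic and interferon-type CXC chemokines were followed in fibroblasts sorted from mouse back skin. The set comprised the 6 CXC chemokine genes Cxcl9, Cxcl10, Cxcl12, Cxcl13, Cxcl14 and Cxcl16, whose products do not act on the neutrophil receptor CXCR2, and Ackr3, an atypical receptor. They were found by symbol through their Ensembl identifiers, which gave 7 genes of the 55414 in the count table. All 7 had enough counts to be among the 17554 genes tested.

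Every mouse in the study was operated on through a cut in the back skin. In the mice called EXP a swelling hydrogel (an expander, which stretches the skin above it) was placed under the skin near the neck, and the mice called CTRL had the operation without a hydrogel. Skin was taken on days 1, 2 and 4, with 4 CTRL and 5 EXP libraries on day 1, 3 and 3 on day 2, and 4 and 3 on day 4, which makes 22 libraries. Live cells without CD31, CD45, CD117 or EpCAM and with CD34 and PDGFRα were sorted as fibroblasts, and strain, sex and age are not given in the sources used here. The labels number the libraries of a group without saying that each number is a separate mouse, so p-values measure the spread between these libraries. Each day was its own set of libraries, so day and any processing by day cannot be told apart.

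CXC chemokines are small secreted proteins that guide leukocytes along gradients held on heparan sulfate. CXCL12, made by stromal cells, retains and attracts leukocytes and progenitors through CXCR4, and ACKR3 binds CXCL12 and takes it out of the extracellular space. CXCL13 draws B cells into follicles through CXCR5, CXCL14 is abundant in normal skin, CXCL16 is a membrane-anchored ligand of CXCR6, and CXCL9 and CXCL10 are interferon-induced ligands of CXCR3 on activated T cells. In skin these genes are expressed by dermal fibroblasts among other cells.

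Libraries held 21461294 to 30210204 counts. Levels are given as CPM (counts scaled to a common library size) on totals scaled by TMM, and a gene was called changed at an adjusted p under 0.05 (edgeR quasi-likelihood test, Benjamini-Hochberg over all 17554 genes). Pdgfra was at 227 CPM or more in every library, and Cd34 at 216 CPM or more. The sorted-for transcript Cd34 was lower in EXP on day 1 (log2 fold change -1.74, adjusted p 0.00081) and day 2 (-2.07, adjusted p 0.00379). Ptprc, the gene of CD45, had 0 counts in 16 of the 22 libraries and at most 0.243 CPM, Kit reached 0.698 CPM, Epcam 2.09 CPM and Pecam1 3.68 CPM. A group of 192 genes that vary with Rnf10 was high in 7 libraries and low in 15. The high side held CTRL replicates 1, 2 and 3 and EXP replicates 1 and 2 from day 1, and from day 4 CTRL replicates 3 and 4. All libraries of day 2 and all EXP libraries of day 4 lay on the low side.

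Cxcl12, Cxcl13 and Cxcl14, the homeostatic members, had the largest log2 fold changes of the set on days 2 and 4. Cxcl12 was 10.2-fold and Cxcl14 33.8-fold higher in EXP than in CTRL on day 2, and 9.87-fold and 27.7-fold higher on day 4, while neither passed the test on day 1. Cxcl13 was 38.3-fold higher on day 4, and Cxcl16 rose by a smaller 2.38-fold on that day. Cxcl10 was 2.33-fold lower in EXP on day 1, and Cxcl9 and Ackr3 passed on no day. In total, 1 member was called lower on day 1, 2 were called higher on day 2 and 4 were called higher on day 4. Among all genes tested, 28.6% were called on day 1, 13.4% on day 2 and 22.5% on day 4. Higher calls alone made up 13.9% of genes on day 1, 7.72% on day 2 and 12.8% on day 4, and lower calls 14.7%, 5.71% and 9.66%. On both later days 5.05% of genes were called higher, as Cxcl12 and Cxcl14 were. The median log2 fold change of the 7 members was 0.07 on day 1, 1.10 on day 2 and 1.25 on day 4, beside 0.02, 0.02 and 0.03 over all genes tested. When library totals were used in place of TMM, the medians over all genes moved to 0.21, 0.49 and 0.36, and the share of higher genes among those called went from 48.7% to 66.2% on day 1, from 57.5% to 90.5% on day 2 and from 57.0% to 80.8% on day 4.

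**Figure D1:**
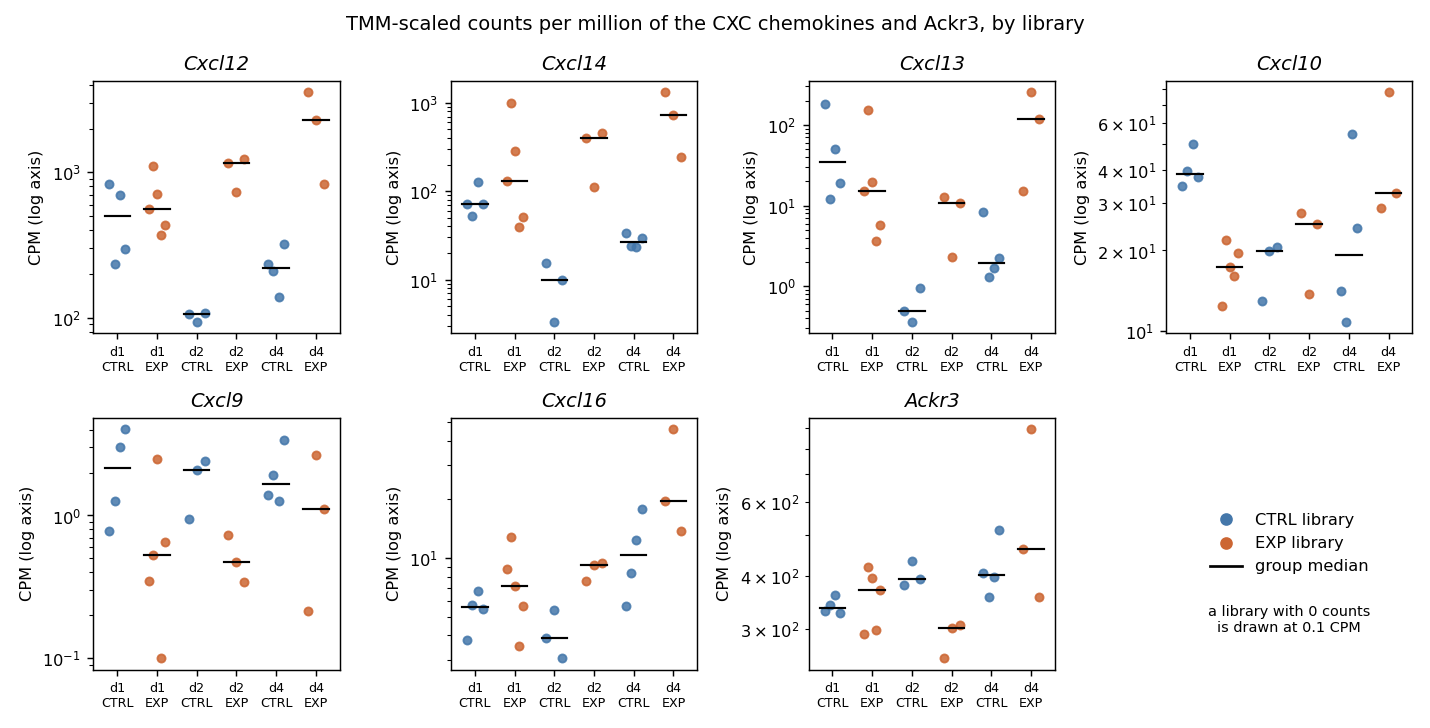
CPM of each gene in each of the 22 libraries on a log axis, by day and arm, with CTRL in blue, EXP in orange and a black bar at the group median (a library with 0 counts is drawn at 0.1). The Cxcl12 and Cxcl14 points of the EXP libraries lie above all CTRL points on days 2 and 4, and those of Ackr3 stay between 256 and 893 CPM throughout.

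Cxcl12 (ENSMUSG00000061353) is the stromal ligand of CXCR4. On day 1 its level was 829, 234, 702 and 297 CPM in the CTRL libraries and 555, 1099, 714, 372 and 434 CPM in the EXP libraries. The arms overlapped, and the difference did not pass (log2 fold change 0.30, SE 0.41, adjusted p 0.62). On day 2 the CTRL libraries held 106, 93.9 and 107 CPM and the EXP libraries 1157, 736 and 1236 CPM. Day 4 gave 232, 208, 138 and 321 CPM in CTRL and 3540.2, 2289 and 828 CPM in EXP. On both later days every EXP library lay above every CTRL library, with day 4 EXP replicate 3 the lowest of its group. The day 2 log2 fold change was 3.35 (SE 0.54, adjusted p 0.000739). That of day 4 was 3.30 (SE 0.49, adjusted p 0.000321). The effect of the expander on Cxcl12 differed between days (joint test, adjusted p 0.00519), being 3.05 log2 units above day 1 on day 2 and 3.00 on day 4. For this joint test 8.82% of all genes were called.

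Each arm was also followed over days. In CTRL the mean of Cxcl12 was 516 ± 295 CPM (SD, n = 4) on day 1, 102 ± 7.28 (SD, n = 3) on day 2 and 225 ± 75.3 (SD, n = 4) on day 4, a change over days that did not pass in edgeR (adjusted p 0.0677) and passed in DESeq2 (adjusted p 0.000878). In EXP the mean was 635 ± 291 CPM (SD, n = 5), 1043 ± 269 (SD, n = 3) and 2219 ± 1358 (SD, n = 3), and this change over days passed (adjusted p 0.022). That call was lost without day 1 EXP replicate 1 (adjusted p 0.055), day 4 EXP replicate 1 (0.157) or day 4 EXP replicate 2 (0.0806).

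Cxcl14 (ENSMUSG00000021508), the chemokine of normal skin, was lower in CTRL than in EXP on days 2 and 4. Its mean on days 1, 2 and 4 was 81.0, 9.50 and 27.6 CPM in CTRL and 301, 322 and 763 CPM in EXP. A change over days passed in neither arm (joint test, adjusted p 0.207 in CTRL and 0.407 in EXP). Its day 1 levels were 72.3, 51.7, 128 and 72.5 CPM in CTRL and 129, 998, 287, 39.2 and 50.7 CPM in EXP. EXP replicate 2 stood far above the others, the arms overlapped, and the log2 fold change of 1.89 (SE 0.77, adjusted p 0.0735) did not pass; without that library it was 0.64 (adjusted p 0.46), and it passed without EXP replicate 4 (2.19, adjusted p 0.0312) or 5 (2.16, adjusted p 0.0388). By day 2 the CTRL libraries were at 15.2, 3.34 and 9.93 CPM and the EXP libraries at 399, 112 and 455 CPM. On day 4 CTRL lay at 33.4, 24.1, 23.1 and 29.7 CPM and EXP at 1310.5, 734 and 245 CPM. The arms were apart on both days. For day 2 the log2 fold change was 5.08 (SE 1.06, adjusted p 0.00452), and for day 4 it was 4.79 (SE 0.92, adjusted p 0.00217). A dependence of the Cxcl14 effect on day did not pass (adjusted p 0.11), but did so without day 1 EXP replicate 2 (adjusted p 0.00809).

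Calls of Cxcl12 and Cxcl14 on days 2 and 4 held in every fit that left out 1 library. The day 4 log2 fold change of Cxcl14 moved to 4.15 without EXP replicate 1, and otherwise lay between 4.71 and 5.22. When the split entered the fit as a covariate, the day 4 log2 fold changes were 3.56 for Cxcl12 (adjusted p 0.000247) and 5.16 for Cxcl14 (adjusted p 0.00227). Among the low-side libraries of day 4 alone, 2 CTRL against 3 EXP, they were 3.33 and 4.73 without a call (adjusted p 0.135 and 0.12), where 1 gene in all was called.

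Cxcl12 and Cxcl14 also moved together from library to library inside the groups. With group means removed, their log2 CPM correlated over the 22 libraries with Pearson r 0.736 (within-group permutation p 3e-05) and Spearman rho 0.802 (permutation p 3e-05), each with an adjusted p of 0.00063 over the 21 pairs of members. Without the 2 libraries whose Cxcl12 value, with group means removed, lay farthest from the median, r was 0.726. No other pair passed the adjustment. The next, Cxcl16 with Ackr3, had r 0.722 (permutation p 0.00624, adjusted 0.0655) and rho 0.635 (permutation p 0.0146, adjusted 0.153). Cxcl13 followed Cxcl12 less closely, with r 0.489 (permutation p 0.0836, adjusted 0.265) and rho 0.5 (permutation p 0.0673, adjusted 0.219).

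**Figure D2:**
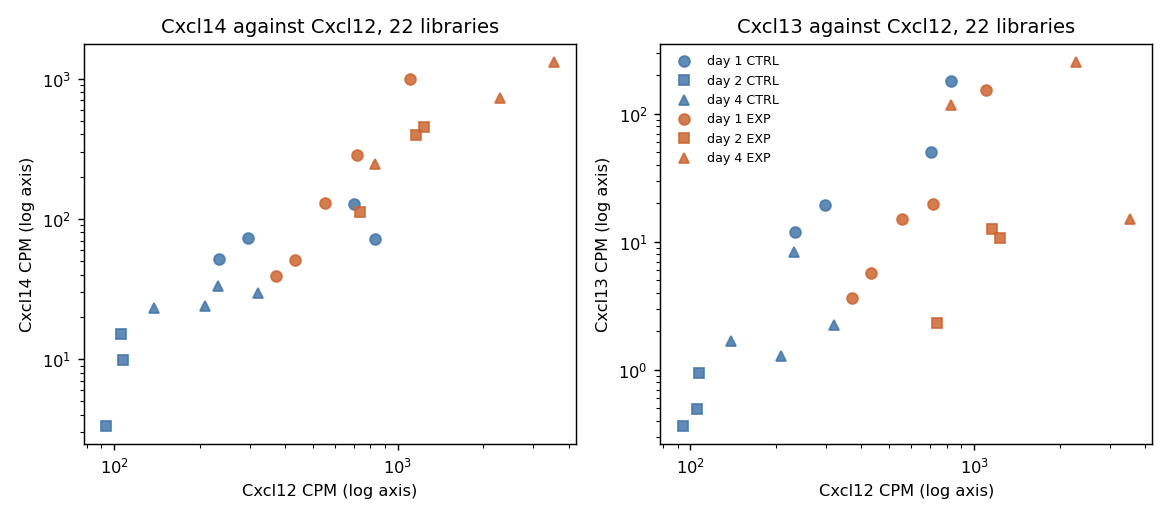
Cxcl14 (left) and Cxcl13 (right) against Cxcl12, in CPM on log axes, 1 point for each of the 22 libraries, with the day as the symbol and the arm as the colour. Cxcl14 tends to rise with Cxcl12, though not in every library. Day 1 CTRL replicates 4 and 1, at 297 and 829 CPM for Cxcl12, are at 72.5 and 72.3 CPM for Cxcl14. Day 4 EXP replicate 1, the highest Cxcl12 library at 3540.2 CPM, is at 15.2 CPM for Cxcl13.

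Promoters of the genes that moved are shown because the homeostatic and interferon-type members can be compared there by sequence. RefSeq (GRCm38.p6, an older build than the one the reads were processed on) gave the 250 bases before the start site for 6 of the 7 genes, with no entry used for Cxcl16. In all, 5 motifs were searched on both strands, and the share of 32841 windows of the same length that hold each follows. The interferon-stimulated response element (ISRE), GAAA and again GAAA with any 2 bases between, was in 2.98%. The NF-kB motif, GGG and TTCC, was in 4.65% with any 3 bases between and in 4.98% with any 2. ACGTG, a form of the hypoxia response core, was in 16.6% and TATAAA in 12.4%. Other forms of that core were not searched. Capitals mark matches, positions count from the start site, and the NF-kB forms overlap at the second NF-kB match of Cxcl10. Windows are Cxcl12 at chr6:117168285-117168534 (plus strand), Cxcl14 at chr13:56296552-56296801 (minus strand), Cxcl13 at chr5:95956689-95956938 (plus strand) and Cxcl10 at chr5:92348890-92349139 (minus strand).
Cxcl12: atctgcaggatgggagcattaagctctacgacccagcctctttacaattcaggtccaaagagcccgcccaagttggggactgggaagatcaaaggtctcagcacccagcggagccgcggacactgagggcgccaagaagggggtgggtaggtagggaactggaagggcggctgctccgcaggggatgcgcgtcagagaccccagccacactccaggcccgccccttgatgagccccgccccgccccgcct
Cxcl14: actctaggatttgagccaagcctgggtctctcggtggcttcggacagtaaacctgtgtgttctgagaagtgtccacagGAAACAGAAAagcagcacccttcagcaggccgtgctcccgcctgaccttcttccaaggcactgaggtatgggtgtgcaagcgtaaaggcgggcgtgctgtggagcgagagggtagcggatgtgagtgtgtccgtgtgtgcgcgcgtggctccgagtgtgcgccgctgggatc
Cxcl13: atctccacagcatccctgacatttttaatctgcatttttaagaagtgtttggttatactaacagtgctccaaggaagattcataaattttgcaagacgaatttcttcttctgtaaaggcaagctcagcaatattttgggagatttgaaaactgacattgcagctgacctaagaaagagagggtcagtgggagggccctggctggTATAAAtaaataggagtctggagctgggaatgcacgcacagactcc
Cxcl10: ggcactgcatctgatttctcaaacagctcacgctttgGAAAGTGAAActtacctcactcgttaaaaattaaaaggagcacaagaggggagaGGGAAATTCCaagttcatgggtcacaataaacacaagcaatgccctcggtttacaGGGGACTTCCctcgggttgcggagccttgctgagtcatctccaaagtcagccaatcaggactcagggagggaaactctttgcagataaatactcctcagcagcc

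The Cxcl12 window held 0 matches to the motifs and had a GC share of 64.4%, against a median of 52.4% over all windows. The Cxcl14 window had a GC share of 59.6% and the ISRE letters GAAACAGAAA at position -172. In the Cxcl13 window, at 42% GC, the match was TATAAA at -46. The Cxcl10 window held the ISRE letters GAAAGTGAAA at -213 and the NF-kB letters GGGAAATTCC at -159 and GGGGACTTCC at -104, and that of Cxcl9 (chr5:92328080-92328329, minus strand) the shorter NF-kB letters GGGTTTTCC at -130 and GGGATTTCC at -42, beside TATAAA at -195. The Ackr3 window held TATAAA at -8. A match is a description of letters, and no binding was measured.

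Cxcl13 (ENSMUSG00000023078), the B cell chemokine, varied widely between libraries of a group. On day 1 it was at 179.5, 11.99, 50.01 and 19.2 CPM in CTRL and at 15.1, 152, 19.9, 3.66 and 5.69 CPM in EXP. CTRL replicate 1 and EXP replicate 2 each stood well above the rest of their group, and the log2 fold change of -0.73 (SE 0.99, adjusted p 0.614) became 0.53 (adjusted p 0.755) without the first and -2.56 (adjusted p 0.043, past the threshold) without the second. On day 2 CTRL was at 0.498, 0.365 and 0.943 CPM, which is 10, 7 and 21 counts, and EXP at 12.7, 2.32 and 10.7 CPM. Each EXP library was above each CTRL library, and the log2 fold change of 3.80 (SE 1.53, 95% interval 0.60 to 6.996) did not pass (adjusted p 0.106). On day 4 the level was 8.27, 1.29, 1.68 and 2.25 CPM in CTRL against 15.2, 252 and 117 CPM in EXP. The arms did not overlap, EXP replicate 1 being the closest to CTRL, and the log2 fold change was 5.26 (SE 1.30, adjusted p 0.00877). That call held in all 7 fits that left out a day 4 library, with adjusted p from 0.0091 to 0.0434, and was lost among the low-side libraries of day 4 alone (4.75, adjusted p 0.206). The log2 value moved to 6.20 without CTRL replicate 1, to 5.79 without EXP replicate 1 and to 4.30 without EXP replicate 2. The expander effect on Cxcl13 differed between days (adjusted p 0.0417), a call lost in 15 of the 22 fits that left out 1 library. Its CTRL mean of 65.2 ± 78.0 CPM (SD, n = 4) on day 1 stood beside 0.602 ± 0.303 (SD, n = 3) on day 2, and the change over days within CTRL had an adjusted p of 0.054 in edgeR and 0.000217 in DESeq2.

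Cxcl16 (ENSMUSG00000018920), the membrane-anchored ligand, lay between 3.05 and 45.9 CPM in all 22 libraries. It stood at 3.79, 5.72, 6.80 and 5.48 CPM in CTRL and 8.80, 12.8, 7.15, 3.53 and 5.69 CPM in EXP on day 1, and at 3.88, 5.38 and 3.05 CPM against 7.65, 9.20 and 9.48 CPM on day 2. The arms overlapped on day 1 (log2 fold change 0.48, adjusted p 0.365) and were apart on day 2 without passing (1.10, SE 0.46, adjusted p 0.121). On day 4 CTRL was at 5.66, 8.40, 12.3 and 17.9 CPM and EXP at 19.5, 45.9 and 13.7 CPM. EXP replicate 3 lay below CTRL replicate 4, and the rise of 1.25 (SE 0.41) passed (adjusted p 0.0349). It passed no longer without CTRL replicate 1 (adjusted p 0.0877), 2 (0.0797) or 3 (0.0599), or without EXP replicate 1 (0.0524) or 2 (log2 fold change 0.57, 0.379). CTRL replicates 3 and 4, its highest controls, are the libraries on the high side of the split, and with the split as a covariate the rise was 1.72 (adjusted p 0.00655). Within EXP it changed over days (adjusted p 0.00655), a call lost without day 4 EXP replicate 2 (0.155). Zmynd15, which overlaps Cxcl16 on the opposite strand, reached 2.95 CPM, and whether reads were counted by strand is not given in the sources used here.

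Cxcl10 (ENSMUSG00000034855) is an interferon-induced ligand of CXCR3. The day 1 levels were 35.0, 39.6, 50.2 and 37.5 CPM in CTRL and 12.4, 21.8, 17.3, 16.1 and 19.5 CPM in EXP. Every EXP library lay below every CTRL library, which held for 12.2% of all genes tested, and the log2 fold change was -1.22 (SE 0.37, adjusted p 0.0192). The call was lost without CTRL replicate 3 (-1.10, adjusted p 0.0573), without EXP replicate 1 (-1.09, adjusted p 0.0569), with the split as a covariate (adjusted p 0.0513) and with no filter on low counts (adjusted p 0.0567), and held among the high-side libraries alone (-1.31, adjusted p 0.0256). On day 2 it was at 13.0, 19.8 and 20.6 CPM in CTRL and 27.7, 13.8 and 25.1 CPM in EXP, and on day 4 at 14.1, 10.8, 54.3 and 24.3 CPM against 28.9, 77.9 and 32.7 CPM. The arms overlapped on both days, with CTRL replicate 3 the highest control on day 4, and neither log2 fold change passed: 0.32 with an SE of 0.46 on day 2 (adjusted p 0.701) and 0.84 with an SE of 0.42 on day 4 (adjusted p 0.157). Without that control day 4 passed (adjusted p 0.011), and without EXP replicate 2 the value was 0.21 (adjusted p 0.798). The effect differed between days (adjusted p 0.0471), by 1.54 log2 units on day 2 and 2.06 on day 4 relative to day 1, and this call was lost in 17 of the 22 fits that left out 1 library. On day 1 the summed level of 8 pericyte and smooth muscle markers was 21.5 to 45.7 CPM in EXP and 49.9 to 92.3 CPM in CTRL, with 2 of 8 lower (Cspg4 and Abcc9), and that of 15 leukocyte markers 37.4 to 54.6 CPM and 43.4 to 90.7 CPM, with Csf1r lower and S100a8 and Cd68 higher. Of 8 keratinocyte markers, Krt10 was lower (-2.54, adjusted p 0.000128) and Krt79 higher (3.73, adjusted p 0.0353). They summed to 2.30 to 23.4 CPM in EXP and 7.50 to 45.4 CPM in CTRL. The 7 endothelial markers summed to 1.02 to 8.48 CPM and 5.76 to 8.49 CPM, with 0 called. The part of these markers in the fall of Cxcl10 was not tested. Art3, whose exons overlap Cxcl10 on the opposite strand, was at 0.859 to 18.8 CPM.

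Cxcl9 (ENSMUSG00000029417), the other CXCR3 ligand measured, was at a low level, with 0 counts in 1 library and 8 to 105 counts in the other 21. A limit of 3 counts is 0.0804 to 0.157 CPM by library. It was at 0.783, 1.27, 3.04 and 4.02 CPM in CTRL and 0.349, 0.525, 2.47, 0 and 0.656 CPM in EXP on day 1. Day 2 had 0.946, 2.09 and 2.43 CPM in CTRL and 0.726, 0.472 and 0.341 CPM in EXP, and day 4 had 1.40, 1.93, 1.26 and 3.37 CPM in CTRL and 0.214, 2.67 and 1.11 CPM in EXP. EXP lay below CTRL without overlap on day 2 and overlapped it on the other days. No day passed. Day 1 had a log2 fold change of -1.51 (95% interval -3.14 to 0.11, adjusted p 0.154), day 2 of -1.81 (-3.89 to 0.27, adjusted p 0.246) and day 4 of -0.59 (-2.44 to 1.26, adjusted p 0.672). Without day 1 EXP replicate 3 the day 1 value was -2.58 and passed (adjusted p 0.0202).

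Ackr3 (ENSMUSG00000044337), the scavenger of CXCL12, lay between 256 and 893 CPM in all 22 libraries. It was at 332, 341, 361 and 327 CPM in CTRL and 291, 421, 397, 298 and 372 CPM in EXP on day 1, at 380.4, 434 and 394 CPM against 256, 302 and 307 CPM on day 2, and at 407, 357, 398 and 515 CPM against 463, 893 and 356 CPM on day 4. EXP lay below CTRL on day 2 and overlapped it on days 1 and 4. No day passed. The log2 fold change was 0.07 on day 1 (95% interval -0.35 to 0.48, adjusted p 0.835), and -0.0015 without EXP replicate 2. On day 2 it was -0.48 (-0.98 to 0.02, adjusted p 0.195), and -0.02 on library totals without TMM. On day 4 it was 0.45 (-0.02 to 0.91, adjusted p 0.155), and -0.05 without EXP replicate 2, while it passed without EXP replicate 3 (0.72, adjusted p 0.0192). Within EXP the level changed over days (adjusted p 0.0166), and not without day 4 EXP replicate 2 (adjusted p 0.2).

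**Figure D3:**
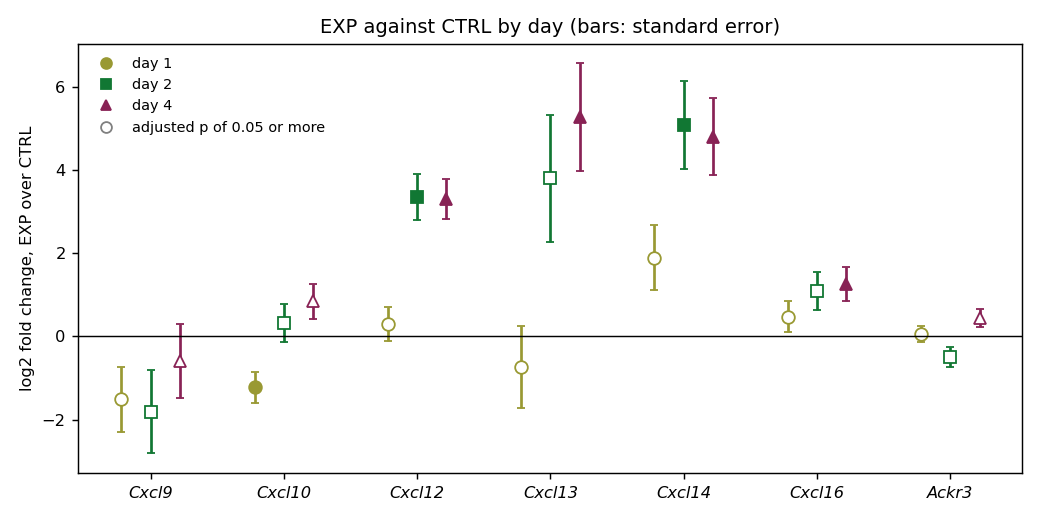
Log2 fold change of EXP over CTRL for each gene on day 1 (circles), day 2 (squares) and day 4 (triangles), with the standard error as bars and filled symbols for adjusted p under 0.05. Cxcl12 and Cxcl14 are filled on days 2 and 4, Cxcl13 and Cxcl16 on day 4, and Cxcl10 below 0 on day 1.

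Libraries of the arms did not overlap for 1 member on day 1, 6 on day 2 and 3 on day 4, against 23.9%, 39.3% and 25.5% of all genes tested. On day 2 the 6 were Cxcl12, Cxcl13, Cxcl14 and Cxcl16 above and Cxcl9 and Ackr3 below. A fit of the day 2 libraries alone called 6 members in place of 2, and 3514 genes in all in place of 2359. On library totals without TMM 4 members and 4632 genes were called. Within EXP, 4 of the 7 members changed over days (Cxcl10, Cxcl12, Cxcl16 and Ackr3), against 14.3% of genes. The Cxcl10 call (adjusted p 0.0441) was lost in 8 of the 11 fits that left out 1 EXP library. Within CTRL, edgeR called 0 of 7, against 0.291% of genes, with 5 at an unadjusted p under 0.05, as 14.2% of all genes were, and DESeq2 called Cxcl12 and Cxcl13.

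Levels were compared between genes, as a rough guide, after division by the joined length of all annotated exons, 8176 bases for Cxcl12. Where the transcript in use is shorter than that, the level is understated, so the order depends on this length. In CPM without it, Cxcl12 had the higher mean, 516 against 340 for Ackr3 in day 1 CTRL and 2219 against 763 for Cxcl14 in day 4 EXP. In day 1 CTRL, Ackr3 had the highest mean at 102 CPM per kb, followed by Cxcl12 (63.1), Cxcl13 (56.7), Cxcl14 (44.4), Cxcl10 (18.0), Cxcl16 (1.80) and Cxcl9 (0.756), and the ranges of neighbours overlapped except between Cxcl14 and Cxcl10 and between Cxcl10 and Cxcl16. Ackr3 was also the highest in CTRL on day 2 (120.3, with Cxcl12 at 12.5) and day 4 (125, with Cxcl12 at 27.5), and its range was apart from that of Cxcl12 on both days. In EXP the highest mean was that of Cxcl14 on each day, and on day 1 this rested on replicate 2. Without that library, left out after seeing the data, the day 1 mean of Cxcl14 went from 165 to 69.3 CPM per kb, below Ackr3 at 101. On day 4 its mean was 418 CPM per kb, followed by Cxcl12 (271), Ackr3 (171), Cxcl13 (112), Cxcl10 (20.6), Cxcl16 (8.73) and Cxcl9 (0.441), and only the last pair had ranges apart. On each EXP day neighbours among the first 3 genes had overlapping ranges.

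**Figure D4:**
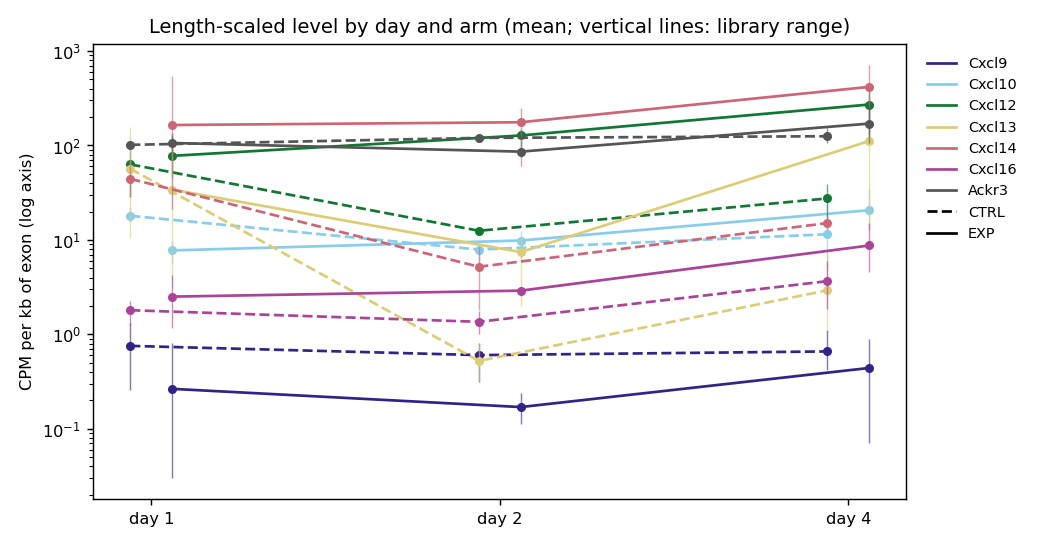
Mean level in CPM per kb of exon on a log axis against day, with CTRL dashed, EXP solid, a colour for each gene and thin vertical lines from the lowest to the highest library (a lower end at 0 is drawn at 0.03). Ackr3 leads in CTRL on all 3 days, and Cxcl14 has the highest EXP mean, 418 on day 4, though on day 1 it lies below Ackr3 without replicate 2.

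Of 9 listed receptor genes, 4 had enough counts to be tested, 1 of them Ackr3 itself. Cxcr5 and Gpr25 had 0 counts in all 22 libraries, Cxcr3 at most 3 counts, Cxcr6 at most 7 and Gpr85 at most 18. Cxcr4, the signalling receptor of CXCL12, reached 1.21 CPM and passed on no day (log2 fold changes 1.61, -2.48 and -1.64, adjusted p 0.137, 0.113 and 0.178). Ackr1, a chemokine-binding receptor known from venules and red cells, was lower in EXP on day 2, at 12.4 ± 9.26 CPM (SD, n = 3) against 45.6 ± 9.55 (SD, n = 3; -1.88, adjusted p 0.0213). Ackr1 shares exon sequence with Cadm3 on the same strand, so its counts are uncertain. Ackr4, a scavenger of CCL19 and CCL21, passed on no day (-0.14, -1.18 and -1.18, adjusted p 0.904, 0.392 and 0.31). Of 8 genes that signal below CXCR4 and ACKR3, 1 fell on day 1 (Arrb2, a beta-arrestin, -1.01, adjusted p 0.00787), none was called on day 2, and on day 4 Gnai1 (-1.69, adjusted p 0.0115) and Arrb1 (-0.96, adjusted p 0.0245) fell while Rgs16, a regulator of G protein signalling, rose (1.60, adjusted p 0.0117). Their medians were -0.19, -0.39 and -0.53. Of all genes tested, 13.9%, 7.72% and 12.8% were called higher on days 1, 2 and 4, and 14.7%, 5.71% and 9.66% lower.

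Proteases and carriers that process or hold chemokines were counted next, with 12 of 14 tested. On day 1, 1 rose and 4 fell, on day 2, 1 fell, and on day 4, 4 rose and 2 fell, with medians of -0.35, 0.15 and 0.14. The shares over all genes tested were 13.9%, 7.72% and 12.8% higher and 14.7%, 5.71% and 9.66% lower on these days. Dpp4, the surface peptidase that trims and inactivates CXCL12, CXCL10 and CXCL9, was at 206 CPM in CTRL and 41.7 CPM in EXP on day 1 (-2.31, adjusted p 6.19e-06) and at 294 and 92.9 CPM on day 2 (-1.66, adjusted p 0.00188). On day 4 it did not pass (-0.66, adjusted p 0.105). Hspg2, the heparan sulfate proteoglycan perlecan, fell on day 1 (-0.77, adjusted p 0.01). Mmp9 was low, at most 16.6 CPM, and fell on day 1 (-4.09, adjusted p 0.0136) and rose on day 4 (5.37, adjusted p 0.00426). Mmp14, a membrane metalloprotease, fell on day 4 (-1.97, adjusted p 0.00944), and Ext2, a subunit of heparan sulfate polymerase, rose (0.61, adjusted p 0.0149).

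Transcription factors reported to act on Cxcl12 were measured for all 7 listed genes. On day 1, 3 rose and 1 fell, on day 2, 3 rose, and on day 4, 3 rose and 1 fell, with medians of 0.95, 0.66 and 0.75. Over all genes tested 13.9%, 7.72% and 12.8% were called higher on these days, and 14.7%, 5.71% and 9.66% lower. Epas1, a hypoxia-inducible factor, rose by 2.68 on day 1 (adjusted p 4.74e-05) and 2.34 on day 2 (adjusted p 0.00178). Hif1a, of the same family, rose by 0.95 (adjusted p 0.000206), 0.61 (adjusted p 0.0363) and 0.75 (adjusted p 0.00577) on days 1, 2 and 4. Ebf1, a mesenchymal and B lineage factor, rose on day 2 (0.81, adjusted p 0.0153) and day 4 (0.72, adjusted p 0.0132). Whether any of these factors bears on the Cxcl12 level was not tested. Ebf3 rose on day 4 (4.12, adjusted p 0.013) from a level at most 3.44 CPM in any library, Ctnnb1 on day 1 (0.37, adjusted p 0.0314), and Nr3c1, the glucocorticoid receptor, fell on day 1 (-0.44, adjusted p 0.038) and day 4 (-0.78, adjusted p 0.00575).

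Lymphotoxin and noncanonical NF-kB genes with other stromal organiser genes, a pathway known to induce Cxcl13 and Cxcl12 in lymphoid stroma, gave 8 higher and 1 lower of 18 tested (21 listed) on day 1, 2 and 1 on day 2, and 1 and 9 on day 4. Medians were 0.37, -0.12 and -0.77. Beside these counts, 13.9%, 7.72% and 12.8% of all genes tested were called higher, and 14.7%, 5.71% and 9.66% lower. Pdpn, podoplanin, rose on day 1 (1.78, adjusted p 2.34e-05) and day 2 (1.44, adjusted p 0.00201), as did Tnfrsf1b, a TNF receptor (1.61, adjusted p 0.00103, and 1.23, adjusted p 0.037), and Tnfrsf12a, the TWEAK receptor, rose on day 1 (1.41, adjusted p 9.47e-05). Map3k14, the kinase NIK, fell on day 2 (-1.12, adjusted p 0.0373). Birc3 (-1.06, adjusted p 0.00161), Traf3 (-1.09, adjusted p 0.0108) and Birc2 (-0.93, adjusted p 0.0127), members of the complex that degrades NIK, fell on day 4. So did Nfkb2 (-0.74, adjusted p 0.0128), Relb (-0.96, adjusted p 0.0174) and Chuk (-0.96, adjusted p 0.0399), also of this list. Map3k14 itself did not pass on day 4 (-0.85, adjusted p 0.0686). Birc2 was the 1 gene that fell on day 1 (-0.66, adjusted p 0.0242) and Tnfsf13b, the B cell survival factor BAFF, the 1 that rose on day 4 (2.39, adjusted p 0.0494). Ccl19, a homeostatic CC chemokine named after its values were seen, was at 25.4 CPM in EXP and 175 CPM in CTRL on day 4 (-2.78, adjusted p 0.0141), while Cxcl13 was 38.3-fold higher.

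Markers of other cell types moved with some of these results. In bulk libraries fewer cells of a type and less RNA per cell cannot be told apart. On day 4 the summed level of 7 endothelial markers was 23.3 to 55.1 CPM in EXP and 4.15 to 11.7 CPM in CTRL, most of it Tek, with 2 of 6 tested called higher (Emcn and Kdr), while Pecam1 stayed at or below 3.68 CPM and Cdh5 at or below 0.59 CPM. The sum of 5 adipocyte markers was 2.97 to 157 CPM in EXP and 2.18 to 6.29 CPM in CTRL on that day, with 3 of 4 tested higher (Adipoq, Cidec and Plin1). On day 2 the endothelial sums were 2.04 to 7.77 CPM in EXP and 0.249 to 0.808 CPM in CTRL, the adipocyte sums 7.20 to 45.0 CPM and 8.71 to 10.5 CPM, and 8 pericyte and smooth muscle markers summed to 30.05 to 52.9 CPM and 88.7 to 97.7 CPM. Their part in the higher levels of Cxcl12, Cxcl13, Cxcl14 and Cxcl16 in EXP than in CTRL was not tested. The 15 leukocyte markers summed to 72.9 to 143 CPM in EXP and 107 to 150.2 CPM in CTRL on day 4, most of it Csf1r, and Ms4a1 had 0 counts in all 22 libraries. S100a8 was higher in EXP on each day at no more than 4.74 CPM, Cd68 on days 1 and 2 and Cd3e on day 4 (2.69, adjusted p 0.0115), and their part in the Cxcl10 and Cxcl16 values was not tested. Over all libraries the keratinocyte sum reached 45.4 CPM, melanocyte 60.2, Schwann 4.61 and lymphatic endothelial 5.71, with at most 1 gene called in each direction per day. Of the 8 fibroblast markers, Pdgfra was higher in EXP on each day, and 4, 5 and 3 were lower on days 1, 2 and 4. Marker counts stand beside 13.9%, 7.72% and 12.8% of all genes called higher on these days, and 14.7%, 5.71% and 9.66% lower.

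Genes with the most similar pattern to each member were taken as the 3 with the highest Pearson correlation of log2 CPM over the 22 libraries, which share their group differences, so the coefficients are descriptions. For Cxcl12 these were Kcne4, a potassium channel subunit (0.95), Glipr2 (0.945) and Gm18787 (0.932), and for Cxcl14 Lpcat3, a phospholipid acyltransferase (0.941), Gldc, glycine decarboxylase (0.926), and again Kcne4 (0.925). Kcne4 had log2 fold changes of 0.60, 3.27 and 2.08 on days 1, 2 and 4. For Cxcl13 they were Plac8 (0.905), Mgll, monoacylglycerol lipase (0.902), and Ggt5 (0.881). Cxcl10 was closest to Lgals3bp (0.848), Ifi27l2a, an interferon-stimulated gene (0.837), and 1600014C10Rik (0.791), and the log2 fold change of Ifi27l2a went from -3.04 on day 1 to 1.76 and 2.39 on days 2 and 4. That course is of this gene alone, and interferon-stimulated genes as a set are not reported here. Cxcl16 was closest to Cp, ceruloplasmin (0.896), Gm5530 (0.871) and Plscr1 (0.871), Ackr3 to Heg1 (0.858), Lsp1 (0.824) and S100a16 (0.787), and Cxcl9 to Cd59b (0.819), Tmem42 (0.784) and S100a1 (0.78).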

How the data were processed

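RNA of sorted fibroblasts was sequenced in 22 libraries of 6 groups. The authors deposited a table of raw counts per gene, and reads were trimmed with Trimmomatic and placed on build mm39, per the submitters' processing notes, while aligner, counter, annotation and strand are not given in the sources used here. Symbols and exon lengths (all annotated exons of a gene joined) came from GENCODE M21, and overlaps between genes from the same annotation. Of 55414 identifiers, 52081 had a symbol. In R 4.3.3 with edgeR 4.0.16, filterByExpr (minimum count 10) kept 17554 genes, totals were scaled by TMM, and a quasi-likelihood fit (robust) with 1 mean per group left 16 residual degrees of freedom. The arms were compared day by day, a joint test asked whether the arm difference varied with day, and further joint tests asked whether each arm changed over days. The Benjamini-Hochberg adjustment ran over all genes of a comparison. Log2 CPM used a prior count of 2. Limits of 3 counts cover counting error only.

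The members and lists were chosen with earlier results of these data known. Named list genes are the tested receptors and, per list and day, the 3 called genes with the smallest p. Outside this rule, Ccl19 and Tnfsf13b, Birc2 and Nr3c1 on day 1, and Ebf1 on day 4 were named after their values were seen. The same holds for Nfkb2, Relb, Chuk and Map3k14 on day 4, and for the marker genes other than those of the sort. The 5 pathway lists and 9 marker lists (leukocyte, endothelial, lymphatic endothelial, keratinocyte, pericyte and smooth muscle, melanocyte, Schwann, adipocyte, fibroblast) were written by hand, and a further pathway list is not reported here. Alternatives were DESeq2 1.42.0, its size factors, library totals without TMM, other count filters, single days, the library split, a replicate block and leaving out each library.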

Additional observations from a re-analysis of the deposited data

Results flagged for a closer look

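In 4 cases a library stood apart from the rest of its group by the gap between neighbours relative to the group's range. The rule was applied to 21 combinations of a gene and a group, where chance nominally gives about 1.05 cases. Genes share libraries, so the combinations are not independent. The 21 do not cover every gene in every group. Libraries not named here, those of day 4 EXP among them, are therefore not cleared of such gaps. Cxcl9 was at 2.47 CPM in day 1 EXP replicate 3, with 0 to 0.656 CPM in the other libraries of the group. Cxcl13 was at 152 CPM in day 1 EXP replicate 2, against 3.66 to 19.9 CPM, and at 8.27 CPM in day 4 CTRL replicate 1, against 1.29 to 2.25 CPM. Cxcl14 was at 998 CPM in that same day 1 EXP replicate 2, against 39.2 to 287 CPM.

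The effect of the expander differed between days for Cxcl12 (adjusted p 0.00519, edgeR joint test), Cxcl13 (adjusted p 0.0417) and Cxcl10 (adjusted p 0.0471).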

How the results depend on the processing

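Higher levels of Cxcl12 and Cxcl14 in EXP than in CTRL on days 2 and 4 kept direction and call under every alternative but 1. Among the low-side libraries of day 4 alone, Cxcl12 was 3.33, Cxcl13 4.75, Cxcl14 4.73 and Cxcl16 1.90 (log2). In that fit 0 members and 1 gene in all were called, and fewer libraries were fitted. The Cxcl12 effect differed between days in all fits. Elsewhere the cause of a change was not tested.

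Same-numbered libraries correlated at -0.066 to 0.164 on day 1, -0.062 to -0.0033 on day 2 and 0.080 to 0.146 on day 4. Libraries of different numbers were not compared, so these values cannot decide whether a number marks a shared mouse, litter or batch. With a replicate block, Cxcl10 on day 1 was -1.28 and Cxcl13 on day 4 was 5.13, both without a call, and 0 members were called on day 1. Adjusted p with the block was 0.157 for Cxcl10 and 0.209 for Cxcl13 for the difference between days, and within EXP 0.111 for Cxcl10 and 0.0542 for Ackr3.

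With every gene that had a count, Cxcl10 on day 1 (-1.23, 0 members called) and Cxcl16 on day 4 (1.28) lost their calls, as did the difference between days of Cxcl10 (adjusted p 0.124) and Cxcl13 (0.113) and the change within EXP of Cxcl10 (0.117) and Cxcl12 (0.0628). A minimum count of 50 called Cxcl13 within CTRL (0.0422). DESeq2 called Cxcl14 on day 1 (1.87, 2 members), Cxcl13 on day 2 (3.81), and Cxcl12 (0.000878) and Cxcl13 (0.000217) within CTRL, and its size factors in edgeR gave Cxcl10 0.0507 for the difference between days. Library totals without TMM called Cxcl13 (4.32) and Cxcl16 (1.55) on day 2, with 4 members and 4632 genes, Cxcl10 (1.14) and Ackr3 (0.77) on day 4, and Cxcl12 (0.0384) and Cxcl13 (0.0296) within CTRL, and lost Cxcl10 within EXP (0.0624). The split as a covariate gave Cxcl10 -1.0004 on day 1 with 0 members called. Among high-side libraries of day 1, Cxcl13 was 0.0092, opposite in sign, Cxcl14 passed (2.72), and 2 members and 2210 genes were called. Day 2 alone called 6 members, adding Cxcl9 (-1.81), Cxcl13 (3.80), Cxcl16 (1.10) and Ackr3 (-0.49). Day 4 alone called 1128 genes, without Cxcl16 (1.23). Over the alternatives other than leaving out a library, 2210 to 5667 genes in all were called on day 1.

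Leaving out 1 library gave 0 to 2 members and 4024 to 4830 genes called on day 1. It gave 891 to 2177 genes on day 2 and 1633 to 5011 on day 4. Day 1 ranges were -2.58 to -1.09 for Cxcl9, -1.31 to -1.09 for Cxcl10, -2.56 to 0.53 for Cxcl13, 0.64 to 2.20 for Cxcl14 and -0.0015 to 0.16 for Ackr3. Day 4 ranges were -1.62 to -0.07 for Cxcl9, 4.15 to 5.22 for Cxcl14, 0.21 to 1.49995 for Cxcl10, 0.57 to 1.59 for Cxcl16 and -0.0488 to 0.72 for Ackr3. Adjusted p for the difference between days ran from 0.0038 to 0.137 for Cxcl10, 0.00426 to 0.117 for Cxcl13, 0.00809 to 0.210 for Cxcl14 and 0.0292 to 0.279 for Ackr3. Within EXP it ran from 0.0397 to 0.473 for Cxcl10 (lost in 8 of 11), 0.00391 to 0.157 for Cxcl12, 0.0130 to 0.357 for Cxcl13, 0.0337 to 0.860 for Cxcl14, 0.00194 to 0.155 for Cxcl16 and 0.00177 to 0.200 for Ackr3. Sign changes were Cxcl13 on day 1 without CTRL replicate 1 (0.53), and Ackr3 without EXP replicate 2 on day 1 (-0.0015) and day 4 (-0.0488). Depth limits Cxcl9, at 0 to 4.02 CPM, and Cxcl13 in day 2 CTRL, at 7 to 21 counts.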
